A study of Sus scrofa with 24 samples.

Results

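Messenger RNA of the translation initiation and elongation factors was followed in pig offspring over 4 developmental stages. The set holds the 42 genes whose only annotated symbol starts with EIF or EEF, out of 6765 genes with a single symbol on the array, and each gene was read by its brightest probe set. These 42 genes, 36 EIF and 6 EEF, have 65 probe sets, and 26 of them have only 1. The choice used gene names and mean brightness over all arrays, and no difference between stages. EEF1A2, EEF2 and EIF4EBP1 were not among the probe sets named in this way and are not analysed here, so EEF1A1 could not be set against EEF1A2.

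Translation of most messenger RNAs starts at the cap. The eIF4 group binds the cap and unwinds the leader, the small ribosomal subunit arrives with eIF1, eIF1A, eIF3 and the initiator tRNA carried by eIF2, and eIF5B joins the large subunit once the start codon is found. In elongation, eEF1A brings each aminoacyl tRNA to the ribosome and is recharged with GTP by eEF1B, while eIF5A helps the ribosome past difficult peptide bonds. In rodent skeletal muscle, fetal eEF1A1 is replaced after birth by its muscle and neuron paralogue eEF1A2.

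All 24 animals were offspring of German Landrace gilts that received a high protein diet in gestation, so every stage carried the same diet. There were 6 animals in each of 4 groups: fetuses at 94 days post conception (94 dpc), and offspring at 1, 28 and 188 days post natum (dpn). RNA of each animal was hybridised to 1 Affymetrix Porcine Genome array, and per stage the offspring came from 3 gilts. The labels do not say which animals shared a mother, and they give no sex, so the p-values treat 6 animals per stage as independent and are too small by an unknown amount if they were not. Values are array signals, in scaled intensity units. Animals are numbered within a stage, and the numbers carry no other meaning. Differences are on the log2 scale with their standard error (SE), from a limma fit with Benjamini-Hochberg adjustment over 23965 probe sets, and a difference passed at an adjusted p of 0.05 or less.

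The labels name liver as the tissue, while the series title names muscle. The summed signal of 8 measured skeletal muscle markers ranged over 172772 to 272958 among fetuses at 94 dpc, 342425 to 436428 among 1 dpn animals, 462361 to 615815 among 28 dpn animals and 386175 to 542183 among 188 dpn animals, and all 8 were above background in every array. The summed signal of 10 measured hepatocyte markers was 7893 to 58860.0, 2714 to 29922, 3066 to 7295 and 1230.4 to 195830.2 at these stages, and that of 4 endothelial markers was highest at 94 dpc (5616 to 10448) and lowest at 188 dpn (1634 to 2304). The ratio of the 5′ to the 3′ control probe set of elongation factor 1 alpha was 0.988 to 1.05 in fetuses. At 1 dpn it was 0.0963 to 0.135 in animals 1 to 3 and 0.670 to 0.703 in animals 4 to 6. The 28 dpn ratios were 0.638 to 0.696, and the 188 dpn ratios were 0.512 to 0.656. By this control every stage after birth lay below the fetuses. By a second control, GAPDH, 1 dpn animals 4 to 6 (0.907 to 0.996) lay above the fetuses (0.780 to 0.870). The GAPDH ratios of 1 dpn animals 1 to 3 (0.424 to 0.616), 28 dpn (0.614 to 0.736) and 188 dpn (0.624 to 0.725) lay below them. The part of these cell and RNA signs in the stage differences was not tested. Values without animals 1 to 3 of 1 dpn, or of 188 dpn, are given where the call of a member ended. Within 188 dpn these animals had the highest hepatocyte sums (195830.2, 152537 and 31226). Animal 3 lay below fetuses 1 (41987) and 2 (58860.0). In such bulk samples fewer cells of a type and less RNA per cell cannot be told apart.

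Of the 42 genes, 34 (81.0%) differed over the 4 stages by limma's F test at an adjusted p of 0.05 or less, beside 65.1% of all 6765 genes. Translation factor messages did not move as a block. Stage means were highest at 188 dpn for 20 genes, at 1 dpn for 10, at 28 dpn for 6 and at 94 dpc for 6. They were lowest at 94 dpc for 16, at 1 dpn for 13, at 188 dpn for 10 and at 28 dpn for 3. These counts hold all 42 genes, whether or not they passed a test, and were not made over all 6765 genes. The 8 genes that passed neither the F test nor any pairwise test were EEF1E1, EIF1AY, EIF2AK2, EIF2B1, EIF2B3, EIF3A, EIF3K and EIF3L.

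**Figure D1:**
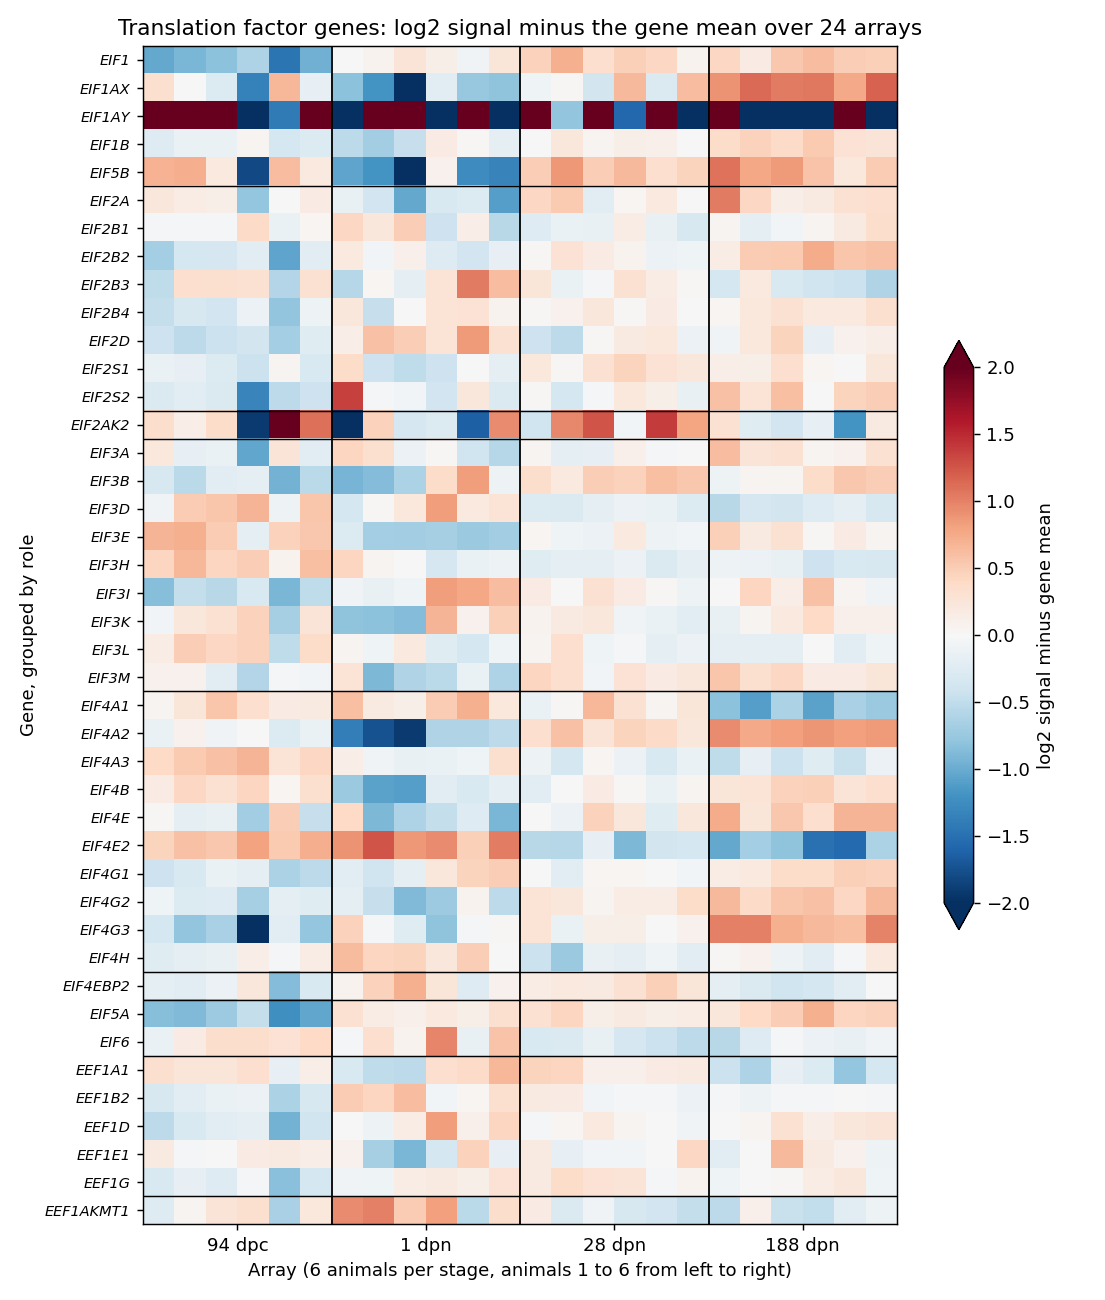
Heatmap of the 42 genes (rows, grouped by role) in the 24 arrays (columns, 6 animals per stage in stage order), coloured by log2 signal minus the mean of the gene over all arrays, with colours ending at −2 and 2. EIF1 and EIF5A are low in all 6 fetuses, EIF4A1 and EIF4E2 are low at 188 dpn, EIF4A2 is low at 1 dpn and high at 188 dpn, and EIF1AY is either high or low in single animals of every stage.

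At 1 dpn against 94 dpc, 13 of the 42 genes rose and 7 fell, which is 47.6% in either direction beside a background of 37.8% of all genes (17.1% higher and 20.7% lower). The 2 stages did not overlap in 9 genes of the set, beside 18.9% of all genes. At 28 dpn against 1 dpn, 9 rose and 5 fell, 33.3% beside a background of 26.6% (13.3% higher and 13.4% lower), and 5 genes did not overlap, beside 12.9% of all genes. At 188 dpn against 28 dpn, 2 rose and 3 fell, 11.9% beside a background of 20.5% (6.18% higher and 14.3% lower), and 10 did not overlap, beside 18.4%. Over the whole span, 188 dpn against 94 dpc, 17 rose and 7 fell, 57.1% beside a background of 50.1% (19.9% higher and 30.2% lower), with no overlap in 22 genes of the set beside 38.9% of all genes. Comparisons that follow each other share a stage's 6 arrays.

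The median log2 difference of the 42 genes was 0.04, 0.08, 0.11 and 0.35 in these 4 comparisons, beside −0.06, −0.02, −0.12 and −0.19 over all genes. How the arrays were scaled shifted all genes: centring each array on its median moved the all-gene median of 188 dpn against 94 dpc to 0.35 and that of the set to 0.89, and quantile normalization moved them to 0.07 and 0.19. Centred, the counts over that span were 28 higher and 2 lower of the 42, beside 50.8% of all genes in either direction. In 1 dpn against 94 dpc the counts were 7 higher and 11 lower of the 42 after quantile normalization, beside 36.8% of all genes in either direction. The preponderance of rises there thus turned over, and the set median was −0.05, beside 0.09 over all genes. Of the 63 differences that passed, 22 in 17 genes passed under every setting run, including each animal left out in turn, and the results below lead with these.

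Of the 5 measured genes of start codon choice and subunit joining, 1 rose and 2 fell at 1 dpn against 94 dpc (60.0%, beside 37.8% of all genes). At 188 dpn against 94 dpc 3 rose and none fell (60.0%, beside 50.1%). EIF1 rose at 1 dpn and stayed high. EIF1 encodes the small factor that keeps the ribosome scanning until a proper start codon is reached. Its signals (lowest, median and highest of 6 animals, the order used from here on) were 15090.0, 21735 and 27123 at 94 dpc, 39842, 44639 and 49694 at 1 dpn, 43860.0, 56426 and 68273 at 28 dpn, and 46495, 58229 and 63693 at 188 dpn. Every fetus lay below every animal born. EIF1 was 2.11-fold higher at 1 dpn than at 94 dpc (log2 1.08, SE 0.14, limma adjusted p = 6.20e-06) and 2.67-fold higher at 188 dpn than at 94 dpc (log2 1.42, SE 0.14, adjusted p = 3.78e-08). A second EIF1 probe set gave 1.20 ± 0.15 and 2.06 ± 0.15 (SE) for these comparisons, and also 0.69 ± 0.15 for 28 dpn against 1 dpn, where the brighter one gave 0.31 ± 0.14 and did not pass.

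EIF1B, a close paralogue of EIF1, had signals of 3321, 3676 and 4370.1 at 94 dpc, 2617, 3381 and 4746 at 1 dpn, 4174, 4460.4 and 4951 at 28 dpn, and 5039.5, 5450.4 and 6029 at 188 dpn. Its 188 dpn values lay above all others. It rose by 0.56 (SE 0.14, limma adjusted p = 0.00217) at 188 dpn against 94 dpc, but by 0.19 with an adjusted p of 0.284 after quantile normalization. Its 1 dpn difference from 94 dpc, −0.09 ± 0.14, did not pass.

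EIF5B, the GTPase of subunit joining, was lowest at 1 dpn. Its signals were 92.4, 430.5 and 531 at 94 dpc, 36.4, 137 and 341 at 1 dpn, 407, 454 and 584 at 28 dpn, and 370.5, 513 and 680.4 at 188 dpn. All 28 dpn animals lay above all 1 dpn animals, while 94 dpc and 1 dpn overlapped. EIF5B was 3.65-fold higher at 28 dpn than at 1 dpn (log2 1.87, SE 0.41, limma adjusted p = 0.00232). The fall at 1 dpn against 94 dpc was −1.42 ± 0.41 (adjusted p = 0.0106), and it was −0.94 with an adjusted p of 0.117 without 1 dpn animals 1 to 3 and −0.52 with an adjusted p of 0.173 as the mean of its 3 probe sets. Neither of the other EIF5B probe sets, both with stage means of at most 172, passed in any comparison.

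EIF1AX and EIF1AY encode eIF1A from the X and Y chromosomes. EIF1AX had signals of 473, 1139 and 1903 at 94 dpc, 304, 688 and 1035 at 1 dpn, 934, 1183 and 1896 at 28 dpn, and 2031, 2491 and 2723 at 188 dpn. The 188 dpn animals stood above all animals of the other stages. EIF1AX was 2.21-fold higher at 188 dpn than at 94 dpc (log2 1.14, SE 0.29, limma adjusted p = 0.00314), and a second probe set gave 1.55 ± 0.28. Its fall at 1 dpn (−0.83 ± 0.29 against 94 dpc, adjusted p = 0.0352) and its rise at 28 dpn (1.06 ± 0.29 against 1 dpn, adjusted p = 0.0129) both missed the threshold without 1 dpn animals 1 to 3, with differences of −0.46 and 0.69 and adjusted p of 0.338 and 0.188. The fall also missed it in 6 of the 24 fits that left out 1 animal (−0.84 to −0.63, adjusted p 0.0533 to 0.0998) and after either rescaling (−0.72 quantile normalized, −0.51 centred), and had an adjusted p of 0.0532 without 188 dpn animals 1 to 3. The last step (0.92 ± 0.29 for 188 dpn against 28 dpn, adjusted p = 0.0386) missed it in 9 such fits (0.82 to 0.94, adjusted p 0.0530 to 0.0908), and was 0.90 with an adjusted p of 0.179 without 188 dpn animals 1 to 3.

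EIF1AY was either present or at background. In 12 of the 24 arrays its signal was 421 to 1297, and in the other 12 it was 2.60 to 51.4, under the background level of 74.7 taken from control probe sets without a pig target. Both kinds occurred at every stage, and no stage difference passed the test. Sex is not in the labels and was not assigned.

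**Figure D2:**
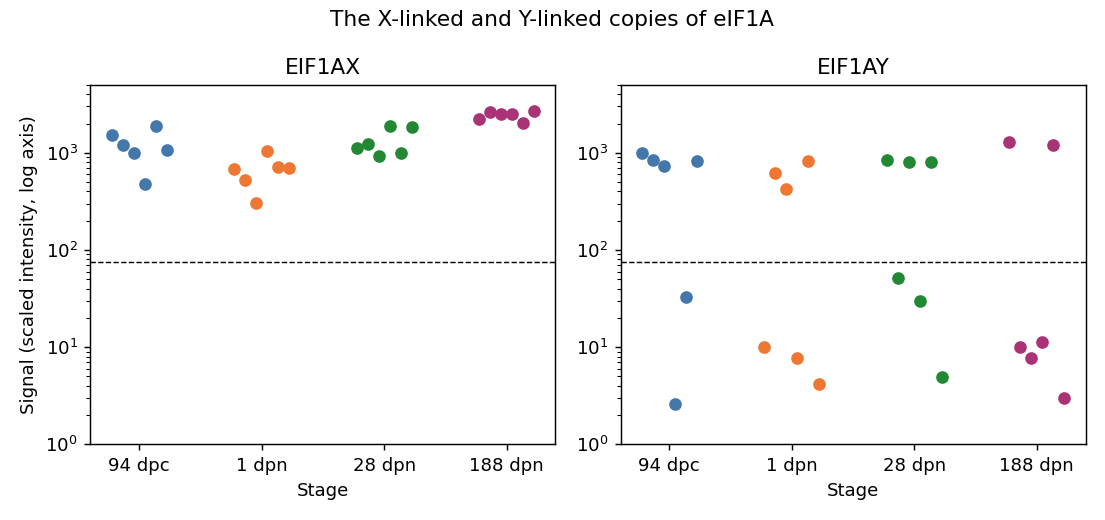
Signal of EIF1AX (left) and EIF1AY (right) in each of the 24 arrays by stage, on a log axis in scaled intensity units. The dashed line is the background level of 74.7. EIF1AX is above it in every array and highest at 188 dpn, while EIF1AY lies far above or below it at each stage.

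The eIF2 and eIF2B group, which brings the initiator tRNA and recharges eIF2 with GTP, has 8 measured genes. At 1 dpn against 94 dpc 3 rose and none fell, and at 188 dpn against 94 dpc 4 rose and none fell. Both shares were close to those of all genes in either direction (37.8% and 50.1%). EIF2B2 encodes the beta subunit of the exchange factor. Its signals were 1265, 2062 and 2269 at 94 dpc, 2008, 2423 and 2988 at 1 dpn, 2405, 2702 and 3210.0 at 28 dpn, and 2886, 3805 and 4368 at 188 dpn. The medians climbed from stage to stage, and 188 dpn did not overlap 94 dpc. EIF2B2 was 1.98-fold higher at 188 dpn than at 94 dpc (log2 0.98, SE 0.16, limma adjusted p = 2.16e-05), although none of its single steps passed.

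EIF2B4, the delta subunit, gave 2218, 2496 and 2699 at 188 dpn against 1249.6, 1698 and 2029 at 94 dpc. The 2 stages did not overlap. The difference was 0.57 ± 0.14 (limma adjusted p = 0.00233). EIF2B4 was also higher at 1 dpn than at 94 dpc by 0.43 ± 0.14 (adjusted p = 0.0241), a call that was lost without 94 dpc animal 1 or 5 or without 1 dpn animal 4 or 5 (adjusted p 0.0502 to 0.0686). EIF2B1 and EIF2B3, the alpha and gamma subunits, differed by 0.04 ± 0.17 and −0.34 ± 0.24 at 188 dpn against 94 dpc and did not pass. A dimmer EIF2B1 probe set had 22.3, 182 and 272 at 1 dpn against 443, 481 and 596 at 94 dpc, a difference of −2.28 ± 0.47. Its lowest 1 dpn values, 25.8 and 22.3, were under background and came from animals 2 and 3, both with low 5′ signal, while the other 4 had 179.6 to 272. The mean of both sets turned the sign of EIF2B1 to −1.13.

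Of eIF2 itself, EIF2S2 (beta subunit) had signals of 3477, 4807 and 5273 at 188 dpn against 1395, 2729 and 2998 at 94 dpc, without overlap. It rose by 0.91 ± 0.24 (limma adjusted p = 0.00418), but missed the threshold by a little, with 0.82 and an adjusted p of 0.0517, without 188 dpn animals 1 to 3. Its rise at 1 dpn against 94 dpc (0.65 ± 0.24, adjusted p = 0.0455) lay near the threshold. It was lost in 18 of the 24 fits without 1 animal (0.40 to 0.69, adjusted p 0.0506 to 0.119). Some of these left out a 28 or 188 dpn animal, which is not in this comparison, and the difference there stayed 0.65. The rise was 0.40 without 1 dpn animal 1 and 0.49 without 94 dpc animal 4. Without 1 dpn animals 1 to 3 it was 0.36 with an adjusted p of 0.273. In the fit without 188 dpn animals 1 to 3 its adjusted p was 0.0635. EIF2S1 (alpha subunit, whose phosphorylation slows initiation) was higher at 28 dpn than at 1 dpn, with 2163, 2538 and 2901 against 1497, 1737 and 2748. The difference was 0.44 ± 0.14 (adjusted p = 0.0348) and was lost in 8 of the 24 fits without 1 animal (0.37 to 0.45, adjusted p 0.0518 to 0.0842) and in the fit without 188 dpn animals 1 to 3 (adjusted p = 0.0525).

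EIF2D and EIF2A encode factors that can place initiator or other tRNAs on the ribosome without eIF2. EIF2D peaked at 1 dpn, with signals of 279.6, 334 and 379 at 94 dpc, 493, 594 and 809 at 1 dpn, 314, 438 and 522 at 28 dpn, and 402, 485 and 610.4 at 188 dpn. All newborns were above all fetuses. It was 1.85-fold higher at 1 dpn than at 94 dpc (log2 0.89, SE 0.16, limma adjusted p = 0.000188) and 1.46-fold lower at 28 dpn than at 1 dpn (log2 −0.55, SE 0.16, adjusted p = 0.0166). Without 1 dpn animals 1 to 3 the fall was −0.58 with an adjusted p of 0.0512. At 188 dpn EIF2D was higher than at 94 dpc by 0.55 ± 0.16 (adjusted p = 0.00738), and by 0.46 with an adjusted p of 0.0811 without 188 dpn animals 1 to 3.

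EIF2A had signals of 1232, 1545 and 2057 at 28 dpn against 662, 1124 and 1282 at 1 dpn, which overlapped. It rose by 0.70 ± 0.21 (limma adjusted p = 0.0221), and this was lost without 1 dpn animal 3 or 6 or 28 dpn animal 1 or 2 (adjusted p 0.0504 to 0.0582). As the mean of its probe sets it was 0.23 with an adjusted p of 0.598, and without 1 dpn animals 1 to 3 it was 0.72 with an adjusted p of 0.0695. EIF2AK2, the double-stranded RNA kinase that phosphorylates eIF2, was dim and scattered. Its signals were 35.1, 169.7 and 1305 at 94 dpc, 4.30, 107 and 257 at 1 dpn, 101, 245 and 351 at 28 dpn, and 58.0, 116 and 164 at 188 dpn, and no comparison passed.

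The 9 measured subunits of eIF3, the large complex that holds the small subunit and the messenger together, split in direction. At 1 dpn against 94 dpc EIF3I rose while EIF3E and EIF3H fell (33.3%, beside 37.8% of all genes). At 188 dpn against 94 dpc EIF3I and EIF3B rose while EIF3D and EIF3H fell (44.4%, beside 50.1%). EIF3E had signals of 5967, 9791 and 11159 at 94 dpc, 4069, 4257 and 5676 at 1 dpn, 6284, 6525 and 7788 at 28 dpn, and 6964, 7671 and 9473 at 188 dpn. The newborns lay below all animals of the other stages. EIF3E was 2.10-fold lower at 1 dpn than at 94 dpc (log2 −1.07, SE 0.15, limma adjusted p = 9.84e-06) and 1.52-fold higher at 28 dpn than at 1 dpn (log2 0.60, SE 0.15, adjusted p = 0.00512). At 1 dpn its signals were 4228 to 5676 in animals 1 to 3 and 4069 to 4301 in animals 4 to 6.

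EIF3I had signals of 2991, 3898 and 4564 at 94 dpc, 5074, 7000.4 and 10036 at 1 dpn, 5272, 6014 and 6984 at 28 dpn, and 5344, 6018 and 8478 at 188 dpn. All fetuses lay below all animals born. It was 1.89-fold higher at 1 dpn than at 94 dpc (log2 0.92, SE 0.19, limma adjusted p = 0.000683). The 1 dpn animals fell apart, with 5074 to 5372 in animals 1 to 3 and 8629 to 10036 in animals 4 to 6. At 188 dpn EIF3I was higher than at 94 dpc by 0.79 ± 0.19 (adjusted p = 0.00156), and by 0.41 with an adjusted p of 0.0684 after quantile normalization.

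EIF3H had 7521, 8570.2 and 9325 at 188 dpn against 10565, 13786 and 15953 at 94 dpc, and EIF3D had 1509, 1771 and 1965 at 188 dpn against 2078, 3232 and 3583 at 94 dpc. Neither pair of stages overlapped. EIF3H fell by 0.69 (SE 0.13, limma adjusted p = 0.000204) and EIF3D fell by 0.70 (SE 0.17, adjusted p = 0.00232). With arrays centred on their median the differences were −0.15 and −0.16, with adjusted p of 0.456 and 0.546. As the mean of its probe sets EIF3D differed by −0.42 with an adjusted p of 0.0934. EIF3H was already lower at 1 dpn than at 94 dpc (−0.47 ± 0.13, adjusted p = 0.00954), and centred by −0.14 with an adjusted p of 0.512.

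EIF3B, a scaffold subunit, had 1054, 1311 and 1636 at 188 dpn against 587, 843 and 999 at 94 dpc, without overlap, and rose by 0.69 ± 0.24 (limma adjusted p = 0.0276). The call was lost without 94 dpc animal 5 or 188 dpn animal 4, 5 or 6 (adjusted p 0.0502 to 0.0710). EIF3M rose by 0.65 ± 0.17 at 28 dpn against 1 dpn (adjusted p = 0.00980), and by 0.30 with an adjusted p of 0.216 as the mean of both its probe sets. EIF3A, EIF3K and EIF3L differed by 0.45 ± 0.20, 0.03 ± 0.25 and −0.38 ± 0.16 at 188 dpn against 94 dpc and did not pass.

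The eIF4 group moved in both directions. Of its 10 measured genes 3 rose and 3 fell at 1 dpn against 94 dpc, and 3 rose and 2 fell at 28 dpn against 1 dpn. At 188 dpn against 28 dpn 1 rose and 2 fell, and at 188 dpn against 94 dpc 5 rose and 3 fell. The shares of all genes in either direction were 37.8%, 26.6%, 20.5% and 50.1% in these comparisons. Each was below the share of the group, a gap that was not tested. The paralogous helicases EIF4A1 and EIF4A2, which unwind the messenger leader, took different courses. EIF4A2 had signals of 15664, 17710.1 and 19989 at 94 dpc, 5015, 9839 and 13122 at 1 dpn, 22093, 24253 and 28441 at 28 dpn, and 32169, 33826 and 36402 at 188 dpn. No neighbouring stages overlapped. EIF4A2 was 2.06-fold lower at 1 dpn than at 94 dpc (log2 −1.04, SE 0.20, limma adjusted p = 0.000389) and 2.83-fold higher at 28 dpn than at 1 dpn (log2 1.50, SE 0.20, adjusted p = 1.80e-05). It was 1.91-fold higher at 188 dpn than at 94 dpc (log2 0.93, SE 0.20, adjusted p = 0.000612), while the last step, 0.47 ± 0.20, did not pass (adjusted p = 0.124).

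At 1 dpn EIF4A2 had signals of 5015 to 7256 in animals 1 to 3 and 12422 to 13122 in animals 4 to 6. Without animals 1 to 3 the fall at 1 dpn was −0.49 with an adjusted p of 0.00529 and the rise to 28 dpn was 0.95 with an adjusted p of 5.16e-05. Both still passed, with smaller sizes. EIF4A1 had signals of 3359, 3769 and 4772 at 94 dpc, 3537, 4177 and 5328 at 1 dpn, 2954, 3609 and 5153 at 28 dpn, and 1514, 1893 and 2090.0 at 188 dpn. It differed little among the first 3 stages, and all 188 dpn animals lay below them. EIF4A1 was 2.04-fold lower at 188 dpn than at 28 dpn (log2 −1.03, SE 0.15, limma adjusted p = 8.83e-05) and 2.13-fold lower than at 94 dpc (log2 −1.09, SE 0.15, adjusted p = 5.06e-06).

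The ratio of EIF4A2 to EIF4A1 signal within an array does not depend on the scaling factor of the array, and only its change is meaningful because each gene has its own probes. The pair was chosen after the values were seen, so the ratio is a description. Its log2 was 2.20 ± 0.17 at 94 dpc, 1.02 ± 0.54 at 1 dpn, 2.72 ± 0.36 at 28 dpn and 4.22 ± 0.21 at 188 dpn (SD, n = 6). The 1 dpn values fell apart, with 0.50 to 0.62 in animals 1 to 3, which had low 5′ signal, and 1.22 to 1.81 in animals 4 to 6. The lowest 188 dpn value, 4.00, lay above the highest 28 dpn value, 3.11. At 188 dpn the ratio was higher than at 94 dpc by 2.02 ± 0.11 (SE) on the log2 scale.

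**Figure D3:**
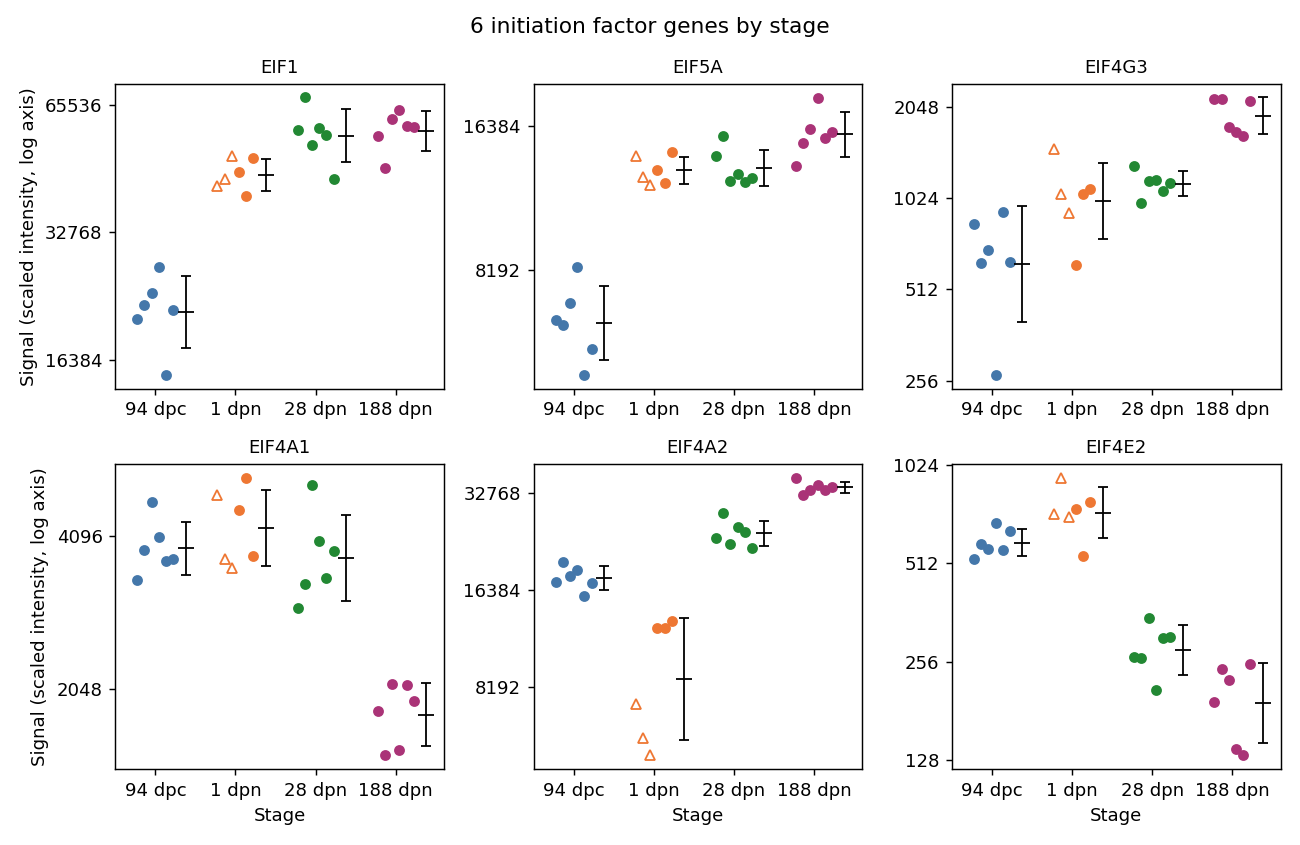
Signals of 6 initiation factor genes by stage, on log axes in scaled intensity units that differ between panels. Points are animals, open triangles are animals 1 to 3 of 1 dpn with low 5′ signal, and black bars are mean and SD of the log2 signal (n = 6). EIF1 and EIF5A are higher at 1 dpn than at 94 dpc, EIF4G3 is highest at 188 dpn, EIF4A1 drops at 188 dpn, EIF4A2 is lowest at 1 dpn, and EIF4E2 drops from 28 dpn on.

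EIF4A3, a related helicase that sits in the exon junction complex, had signals of 1781, 2017 and 2336 at 188 dpn against 3080.1, 3530.0 and 4068 at 94 dpc, without overlap. It was lower by 0.80 at 188 dpn (log2 −0.80, SE 0.13, limma adjusted p = 1.75e-05) and already at 1 dpn against 94 dpc (−0.48 ± 0.13, adjusted p = 0.00541). With centred arrays the differences were −0.27 and −0.15, with adjusted p of 0.145 and 0.445.

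EIF4B and EIF4H both stimulate the eIF4A helicases. EIF4B had signals of 4164, 5047 and 5445 at 94 dpc, 1893, 2864 and 3565 at 1 dpn, 3453, 4106 and 4562 at 28 dpn, and 4779, 5013 and 5650.4 at 188 dpn. All newborns lay below all fetuses. It was 1.84-fold lower at 1 dpn than at 94 dpc (log2 −0.88, SE 0.16, limma adjusted p = 0.000228), and a second probe set gave −0.64 ± 0.16. The 1 dpn signals were 1893 to 2431 in animals 1 to 3 and 3297 to 3565 in animals 4 to 6, and without the 3 lower ones the rise to 28 dpn (0.58 ± 0.16, adjusted p = 0.0119) was 0.21 with an adjusted p of 0.329. EIF4H ran the other way at 28 dpn, with 2275, 3295 and 3557 at 28 dpn against 3822, 5117 and 5856 at 1 dpn. These did not overlap, and EIF4H was lower at 28 dpn by 0.67 (log2 −0.67, SE 0.14, adjusted p = 0.00150). Its rise at 1 dpn against 94 dpc (0.43 ± 0.14, adjusted p = 0.0239) was lost without 94 dpc animal 1 or 2 or 1 dpn animal 1 (adjusted p 0.0525 to 0.0569), was 0.30 with an adjusted p of 0.204 without 1 dpn animals 1 to 3 and 0.17 after quantile normalization, and turned to −0.07 as the mean of both probe sets.

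The eIF4G scaffolds, which tie the cap complex to eIF3, rose over the span. EIF4G3 had signals of 268, 661 and 918 at 94 dpc, 615, 1058 and 1487 at 1 dpn, 986, 1157 and 1309 at 28 dpn, and 1637, 1948 and 2175 at 188 dpn. The 188 dpn animals lay above all others. EIF4G3 was 3.09-fold higher at 188 dpn than at 94 dpc (log2 1.63, SE 0.24, limma adjusted p = 6.58e-06). Its step at 1 dpn (0.70 ± 0.24 against 94 dpc, adjusted p = 0.0281) was 0.45 without 94 dpc animal 4 and 0.58 without 1 dpn animal 1, with adjusted p of 0.0628 and 0.0714. Without 1 dpn animals 1 to 3 it was 0.53, with an adjusted p of 0.197. Its step at 188 dpn (0.75 ± 0.24 against 28 dpn, adjusted p = 0.0356) was lost in 8 of the 24 fits without 1 animal (0.71 to 0.75, adjusted p 0.0550 to 0.0727) and was 0.66 with an adjusted p of 0.218 without 188 dpn animals 1 to 3.

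EIF4G1 had 2713, 3151 and 3387 at 188 dpn against 1569.5, 1906 and 2216 at 94 dpc, and rose by 0.70 ± 0.15 without overlap (limma adjusted p = 0.000704). Its rise at 1 dpn against 94 dpc (0.43 ± 0.15, adjusted p = 0.0373) was lost in 7 of the 24 fits without 1 animal (0.34 to 0.44, adjusted p 0.0512 to 0.0904) and in the fit without 188 dpn animals 1 to 3 (adjusted p = 0.0511), and was 0.06 as the mean of its probe sets. EIF4G2, whose product lacks the site for eIF4E, had signals of 8806, 11684 and 13075 at 94 dpc, 7559.5, 9924 and 14724 at 1 dpn, 14421, 15837 and 17981 at 28 dpn, and 18133, 20719 and 21949 at 188 dpn. Its 188 dpn animals lay above all others. EIF4G2 rose by 0.65 ± 0.15 at 28 dpn against 1 dpn (adjusted p = 0.00336) and by 0.83 ± 0.15 at 188 dpn against 94 dpc (adjusted p = 9.35e-05), the second of which was 0.20 with an adjusted p of 0.374 after quantile normalization.

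The messages of 2 cap-binding proteins, EIF4E and EIF4E2, moved in opposite directions over the span by their brightest probe sets. The other EIF4E2 probe sets did not follow, as given below. EIF4E, the cap-binding subunit of the initiation complex, had signals of 281, 364 and 398 at 188 dpn against 147, 212 and 336 at 94 dpc, which overlapped. It rose by 0.70 ± 0.22 (limma adjusted p = 0.0126), and by 0.73 with an adjusted p of 0.0524 without 188 dpn animals 1 to 3. EIF4E2, a cap-binding homologue that does not recruit eIF4G and can repress translation, had signals of 529, 578 and 681 at 94 dpc, 541, 739 and 936 at 1 dpn, 209, 283 and 348 at 28 dpn, and 132, 208 and 251 at 188 dpn. The first 2 stages lay wholly above the last 2.

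EIF4E2 was 2.64-fold lower at 28 dpn than at 1 dpn (log2 −1.40, SE 0.18, limma adjusted p = 1.05e-05) and 3.11-fold lower at 188 dpn than at 94 dpc (log2 −1.64, SE 0.18, adjusted p = 1.22e-07). The step at 188 dpn against 28 dpn (−0.54 ± 0.18, adjusted p = 0.0422) was lost in 11 of the 24 fits without 1 animal (−0.56 to −0.44, adjusted p 0.0506 to 0.108) and after either rescaling (−0.33 quantile normalized, −0.28 centred). The other 2 EIF4E2 probe sets did not follow: for 188 dpn against 94 dpc they gave 0.17 ± 0.24 and −0.82 ± 0.48, and for 28 dpn against 1 dpn −0.17 ± 0.24 and −0.03 ± 0.48, none of which passed. As the mean of all 3 probe sets the 28 dpn difference was −0.53 with an adjusted p of 0.0546.

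EIF4EBP2 encodes a protein that blocks eIF4E until it is phosphorylated by mTORC1. Its signals were 2504, 3999 and 5345 at 94 dpc, 3824, 5131 and 7495 at 1 dpn, 5088, 5329.8 and 6369.7 at 28 dpn, and 3477, 3829.6 and 4613 at 188 dpn. All 188 dpn animals lay below all 28 dpn animals, although that difference, −0.50 ± 0.17, had a limma adjusted p of 0.0516. The rise at 1 dpn against 94 dpc (0.46 ± 0.17, adjusted p = 0.0433) was lost in 11 of the 24 fits without 1 animal (0.33 to 0.48, adjusted p 0.0501 to 0.123) and in the fit without 188 dpn animals 1 to 3 (adjusted p = 0.0625). Without 1 dpn animals 1 to 3 it was 0.26 with an adjusted p of 0.336, and it was 0.17 after quantile normalization and 0.11 as the mean of its probe sets.

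EIF5A was higher at 1 dpn than at 94 dpc and kept its level. The eIF5A protein is the only known carrier of hypusine, a modified lysine made by DHPS and a second enzyme. EIF5A had signals of 4928, 6333 and 8278 at 94 dpc, 12345, 13025 and 14429.5 at 1 dpn, 12489, 12875 and 15572 at 28 dpn, and 13476, 15671 and 18790.5 at 188 dpn. Fetuses and animals born did not overlap. EIF5A was 2.09-fold higher at 1 dpn than at 94 dpc (log2 1.06, SE 0.13, limma adjusted p = 2.10e-06) and 2.49-fold higher at 188 dpn than at 94 dpc (log2 1.32, SE 0.13, adjusted p = 2.72e-08). At 1 dpn animals 1 to 3 had 12345 to 14149 and animals 4 to 6 had 12446 to 14429.5.

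A second, dimmer EIF5A probe set did not show this step. It had 319.8, 1694 and 3525 at 1 dpn against 2086, 2517 and 3033 at 94 dpc (−1.04 ± 0.43, limma adjusted p = 0.0744), and the mean of both sets differed by 0.01 with an adjusted p of 0.978. In this second set, 1 dpn animals 1 to 3 had 319.8 to 620.5 and 1 dpn animals 4 to 6 had 2767 to 3525, a gap that the brighter set did not show. For 188 dpn against 94 dpc it gave 1.08 ± 0.43 with an adjusted p of 0.0515. DHPS, not a member of the set, had 1852, 2065 and 2795 at 1 dpn against 589, 955 and 1083 at 94 dpc. All newborns lay above all fetuses, and DHPS was higher by 1.32 ± 0.16 (adjusted p = 1.61e-06) at 1 dpn and by 1.36 ± 0.16 (adjusted p = 2.64e-07) at 188 dpn, both against 94 dpc.

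EIF6, which keeps the large subunit from joining too early, had signals of 1032, 1186 and 1339 at 28 dpn against 1332, 1714 and 2929 at 1 dpn. It fell by 0.64 (SE 0.17, limma adjusted p = 0.00963) at 28 dpn. At 188 dpn it was lower than at 94 dpc by 0.43 (log2 −0.43, SE 0.17, adjusted p = 0.0475), a call that was lost in 17 of the 24 fits without 1 animal (−0.45 to −0.36, adjusted p 0.0516 to 0.115) and without 188 dpn animals 1 to 3 (−0.34, adjusted p = 0.243), and whose sign turned to 0.11 with centred arrays.

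The 5 measured eEF1 genes gave 3 rises and no fall at 1 dpn against 94 dpc (60.0%, beside 37.8% of all genes). At 188 dpn against 94 dpc they gave 2 rises and 1 fall (60.0%, beside 50.1%). The size of the rises depended on array scaling, and some turned. EEF1B2, EEF1D and EEF1G encode the exchange factor that recharges eEF1A. At 1 dpn against 94 dpc, EEF1B2 was higher by 0.60 ± 0.13 (limma adjusted p = 0.00126), EEF1D by 0.66 ± 0.16 (adjusted p = 0.00236) and EEF1G by 0.42 ± 0.13 (adjusted p = 0.0216), but quantile normalization gave −0.07, 0.06 and −0.11, and none passed.

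EEF1B2 had signals of 26451, 34157 and 37961 at 94 dpc, 39558, 53509 and 63294 at 1 dpn, 38082, 40403 and 46729.8 at 28 dpn, and 38314, 40499 and 41072 at 188 dpn. EEF1D had 7377, 11137 and 12346 at 94 dpc, 13274, 15449 and 25264 at 1 dpn, 13534, 14424 and 16232 at 28 dpn, and 14217, 16079.7 and 17458 at 188 dpn. In both genes all fetuses lay below all animals born. EEF1D was higher at 188 dpn than at 94 dpc by 0.59 ± 0.16 (limma adjusted p = 0.00388), and quantile normalization turned this to −0.04. EEF1G was higher at 188 dpn than at 94 dpc by 0.36 ± 0.13 (adjusted p = 0.0373), and by 0.05 after quantile normalization. The call was lost in 6 of the 24 fits without 1 animal (0.26 to 0.36, adjusted p 0.0554 to 0.110) and without 188 dpn animals 1 to 3 (0.42, adjusted p = 0.0754). The rise of EEF1G at 1 dpn was lost without 94 dpc animal 5 (0.31, adjusted p = 0.0621).

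EEF1A1 was read by a control probe set for the middle of elongation factor 1 alpha, the brightest set with this symbol. It had signals of 35908, 47847 and 51171 at 94 dpc, 28145, 41868 and 63996 at 1 dpn, 43288, 45464 and 55210.2 at 28 dpn, and 23679, 30924 and 36187 at 188 dpn. The 1 dpn animals fell apart, with 28145 to 32687 in animals 1 to 3, which had low 5′ signal, and 51048 to 63996 in animals 4 to 6. All 188 dpn animals lay below all 28 dpn animals. EEF1A1 fell by 0.67 (SE 0.19, limma adjusted p = 0.0196) at 188 dpn against 28 dpn and was lower than at 94 dpc by 0.62 (log2 −0.62, SE 0.19, adjusted p = 0.0120). With centred arrays these were −0.40 and −0.08, with adjusted p of 0.206 and 0.777, and without 188 dpn animals 1 to 3 the first was −0.70 with an adjusted p of 0.0890.

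The other EEF1A1 probe sets gave other courses around birth. The next brightest had 1253, 1869.9 and 2392 at 1 dpn against 947, 1070.1 and 1443 at 94 dpc, a rise of 0.62 ± 0.17 (limma adjusted p = 0.00875), and was lower at 28 dpn than at 1 dpn by 0.62 (log2 −0.62, SE 0.17, adjusted p = 0.0132). The control set gave −0.17 ± 0.19 and 0.23 ± 0.19 for these comparisons, each over the 1 dpn animals that fell apart as given above. At 188 dpn the next brightest set differed by −0.40 ± 0.17 from 94 dpc (adjusted p = 0.0751) and by −0.39 ± 0.17 from 28 dpn (adjusted p = 0.143), so without control probe sets neither late difference of EEF1A1 passed. The third in brightness fell by 0.83 (SE 0.18, adjusted p = 0.000761) at 188 dpn against 94 dpc. The dimmest had 47.7, 82.2 and 114 at 188 dpn, around background, against 347, 386 and 489.6 at 94 dpc, without overlap (adjusted p = 3.72e-07).

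A further 9 probe sets carry the symbol EF1ALPHA, a synonym of EEF1A1 in the gene table, and did not follow one course. Of the controls, the 3′ set had 52568, 64309 and 71493 at 1 dpn against 33142, 41702 and 45456 at 94 dpc (0.61 ± 0.13, limma adjusted p = 0.000987), while the 5′ set had 6686, 23039 and 43805 at 1 dpn against 34396, 43372 and 44927 at 94 dpc (−1.29 ± 0.39, adjusted p = 0.0146). The sign of this difference thus differed between the ends of 1 transcript. A bright separate set had 11177, 13199 and 16402 at 94 dpc, 3677, 9169 and 15099 at 1 dpn, 36391, 40091 and 55421 at 28 dpn, and 24039, 28114 and 33278 at 188 dpn. It was higher at 28 dpn than at 1 dpn by 2.46 ± 0.29 (adjusted p = 3.45e-06) and at 188 dpn than at 94 dpc by 1.05 ± 0.29 (adjusted p = 0.00489). The files do not say which eEF1A gene this set reads.

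**Figure D4:**
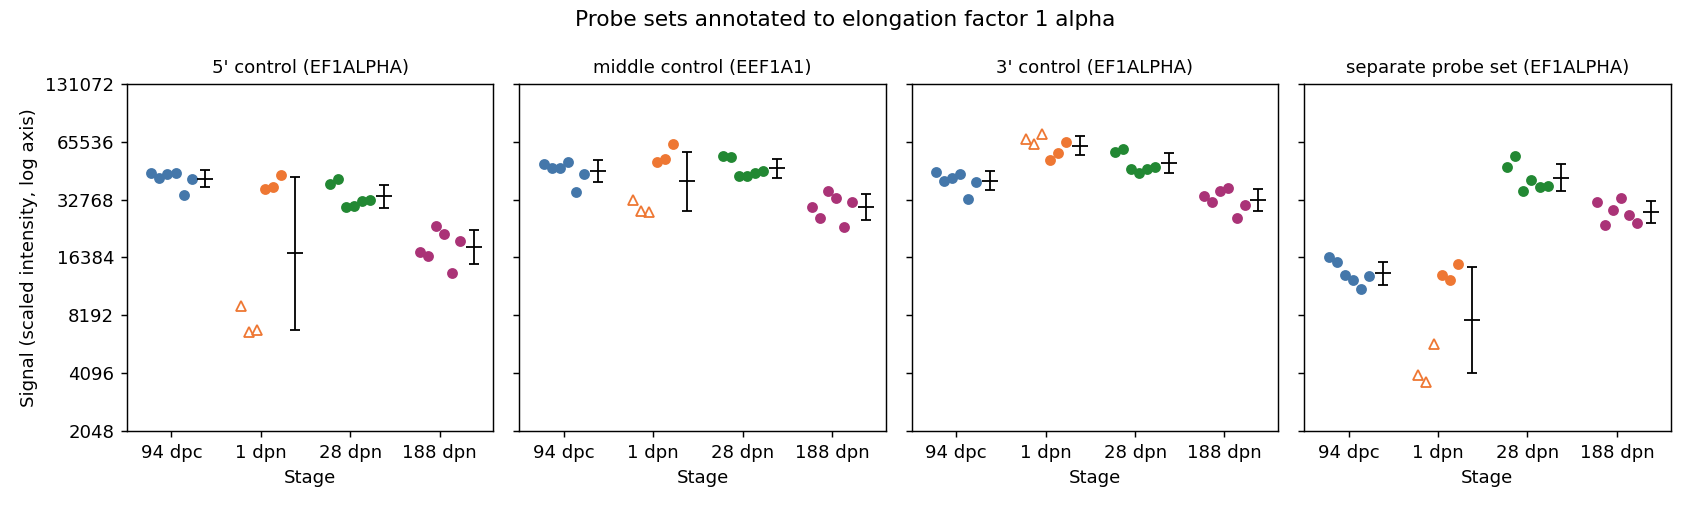
Signals of 4 probe sets annotated to elongation factor 1 alpha by stage, on a log axis in scaled intensity units: the 5′, middle and 3′ controls and a separate set. Points are animals, open triangles are animals 1 to 3 of 1 dpn, and black bars are mean and SD of the log2 signal (n = 6). In these 3 animals the 5′ set lies far below all other animals while the 3′ set is among its highest, and the separate set is highest at 28 dpn.

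EEF1AKMT1, an enzyme that methylates a lysine of eEF1A, had 2802, 3153 and 4350.0 at 28 dpn against 2679, 6219 and 7837 at 1 dpn, and fell by 0.75 (SE 0.23, limma adjusted p = 0.0228). The call was lost without 1 dpn animal 1 or 2 or 28 dpn animal 6 (adjusted p 0.0504 to 0.0593), and without 1 dpn animals 1 to 3 the difference was −0.45 with an adjusted p of 0.307, and as the mean of both probe sets it was −0.15. EEF1E1, which scaffolds tRNA synthetases despite its name, had stage means between 721 and 926 and passed in no comparison.

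Among 16 measured genes of translation control that are not members, 5 rose and 4 fell at 1 dpn against 94 dpc (56.2%, beside 37.8% of all genes). At 188 dpn against 94 dpc 6 rose and 2 fell, a share close to the 50.1% of all genes. PABPC1, the poly(A)-binding protein that meets eIF4G, had signals of 12069, 14007 and 15523 at 94 dpc, 7338, 9463 and 12888 at 1 dpn, 5511, 6834 and 7168 at 28 dpn, and 3034, 4142 and 5588 at 188 dpn. It fell in each step, and was lower at 188 dpn than at 94 dpc by 1.76 (log2 −1.76, SE 0.15, limma adjusted p = 4.32e-09). PAIP1, which binds PABPC1 and eIF4A and aids initiation, had 2569, 2759.6 and 3156 at 188 dpn against 911, 1208 and 1414 at 94 dpc. It was higher by 1.25 ± 0.20 (adjusted p = 1.79e-05), after a fall of −0.60 ± 0.20 at 1 dpn against 94 dpc.

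ATF4, the transcription factor whose messenger is translated better when eIF2 is phosphorylated, had 51299.5, 58680.0 and 59904 at 188 dpn against 6050.2, 6416 and 6928 at 94 dpc. Its brightest probe set rose in each step and by 3.14 ± 0.15 over the span (limma adjusted p = 1.18e-12). PPP1R15A, which recruits the phosphatase that reverses eIF2 phosphorylation, had 70.8, 109 and 406 at 1 dpn against 201, 619 and 689 at 94 dpc. It fell by 2.06 (SE 0.44, adjusted p = 0.00110) while overlapping, and its lowest 1 dpn value, 70.8, was under background.

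The list of termination, recycling and factor modification held 6 measured genes. At 1 dpn against 94 dpc 3 rose and none fell, beside 37.8% of all genes in either direction. At 188 dpn against 94 dpc, beside 50.1% of all genes, none fell and 4 rose. Besides DHPS these were DNAJC24 and DPH3, which act in making diphthamide on eEF2, and TPT1. DNAJC24 had 268, 469.5 and 791 at 1 dpn against 77.4, 132 and 169 at 94 dpc and rose by 1.86 ± 0.26 (limma adjusted p = 1.45e-05). DPH3 rose by 0.79 ± 0.14 at 188 dpn against 94 dpc (adjusted p = 0.000101). TPT1 rose by 0.72 ± 0.13 over that span (adjusted p = 6.40e-05), and by 0.36 ± 0.13 at 1 dpn against 94 dpc (adjusted p = 0.0323), which quantile normalization turned to −0.30.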

How the data were processed

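The authors deposited linear signal intensity values, 1 per probe set and array, made with GCOS 1.1.1 per the submitters' processing notes. The trimmed mean of each array was 498.3 to 499.4, so the deposited intensity had been scaled per array, and the probe summary is not given in the sources used here. RNA was cleaned after DNase treatment, and 0.5 µg was labelled, per the labels' protocols.

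Of 24118 probe sets, 153 controls without a single gene symbol were left out and 30 annotated controls were kept, because the brightest EEF1A1 probe set is a control. Symbols come from the platform annotation, and 41 of the 42 gene numbers were found in the table of RefSeq genes, which was used for synonyms and chromosomes. Another 6 probe sets with several symbols, some of them EIF, were not used. Values were taken as log2 with no added constant and no filter. Files were read with version 1.17.8 of the R package data.table, and limma 3.58.1 in R 4.3.3 was fitted over all 24 arrays, with a mean for each of the 4 stages (residual degrees of freedom 20) and two-sided tests, without mother, sex or batch, and was tested on simulated data. The background, 74.7, is the 95th percentile of 17 Tag control probe sets and was set after the data were seen. The number of arrays limits the precision. Summaries used pandas 2.3.3 with numpy 2.4.6 under Python 3.11.15, and figures matplotlib 3.10.9.

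Members, role lists, partner lists and markers were chosen with earlier results of these data known. The named members with values were the brightest of each role and, per comparison, the 4 largest rises and 4 largest falls, and partners were up to 4 per list with the largest difference; the other members were described because all are members. Alternatives were quantile normalization, median centring, 16 or 64 added before the log2, leaving out the dimmest 30% of probe sets, the mean of a gene's probe sets, trend and robust settings, array weights, fits of 2 stages, an adjusted p of 0.01, each animal left out, and animals 1 to 3 of 1 or 188 dpn left out. A fit without control probe sets was added after the data were seen.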

Additional observations from a re-analysis of the deposited data

Results flagged for a closer look

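In 9 of 96 stage groups of 24 members, 1 animal stood apart from the other 5 by a test for a single outlying value, which chance alone gives in about 1 in 20 groups. Fetus 4 of 94 dpc was lowest in 5 of them. It had 831 for EIF2A, against 1420.3 to 1662 in the other fetuses. For EIF2S2 it had 1395 (others 2409 to 2998), for EIF3E 5967 (others 9356 to 11159), for EIF4G3 268 (others 626 to 918) and for EIF5B 92.4 (others 369 to 531). At 1 dpn animal 1 was highest for EIF2S2 with 8975 (others 2664 to 4063) and for EIF3E with 5676 (others 4069 to 4301). At 188 dpn animal 1 was highest for EIF2A with 2941 (others 1569 to 1888), and animal 2 was lowest for EEF1B2 with 38314 (others 40352 to 41072).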

How the results depend on the processing

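Of 63 member differences that passed, all 63 passed with 16 or 64 added before the log2, after dropping the dimmest 30% of probe sets and under trend and robust settings, 62 with array weights, 61 without control probe sets, 53 as means of probe sets, 52 with median centring, 46 after quantile normalization and 44 in fits of 2 stages. Without animals 1 to 3 of 1 dpn 52 passed, and without animals 1 to 3 of 188 dpn 50. The cause of these losses was not tested. The fits of 2 stages and those without animals 1 to 3 also held fewer arrays.

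The 13 rises at 1 dpn against 94 dpc became 6 at an adjusted p of 0.01, 7 after quantile normalization and 6 in the fit of 2 stages, and the 7 falls became 11 after quantile normalization, 4 with centring and 4 in the fit of 2 stages. The 9 rises at 28 dpn against 1 dpn became 5 at 0.01 and 5 in the fit of 2 stages, and the 5 falls 3 and 2. The 2 rises at 188 dpn against 28 dpn became 0 at 0.01, 1 after quantile normalization, 13 with centring, 7 with array weights, 7 in the fit of 2 stages, 6 without the 1 dpn animals and 0 without the 188 dpn animals, and the 3 falls became 1 at 0.01 and 1 with centring. The 17 rises at 188 dpn against 94 dpc became 28 and the 7 falls 2 with centring. In the order of these 4 comparisons, 36.8%, 27.0%, 16.4% and 46.4% of all genes passed after quantile normalization. With centring, 38.2%, 26.4%, 20.3% and 50.8% did. With each animal left out the rises ranged over 8 to 13, 7 to 11, 0 to 3 and 15 to 19 in these comparisons, the falls over 6 to 9, 4 to 6, 2 to 4 and 6 to 7, and the genes that passed the F test over 33 to 35.

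Quantile normalization turned EEF1B2 to −0.07, EEF1G to −0.11, RPS6 to −0.35 and TPT1 to −0.30 at 1 dpn against 94 dpc, and EEF1D to −0.04 and EIF3K to −0.57 at 188 dpn against 94 dpc. Centring turned EIF6 to 0.11, MKNK1 to 0.09, IMPACT to 0.53 and GCN1 to 0.45 in that last comparison. Means of probe sets turned EIF2B1 to −1.13 and EIF4H to −0.07 at 1 dpn against 94 dpc and EIF2B1 to 0.79 at 28 dpn against 1 dpn. Without control probe sets EEF1A1 gave 0.62 and −0.62 in those 2 comparisons.

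Of 26 passing differences in genes with several probe sets, 10 were matched by another probe set and 0 were opposed by one that passed. Where the brightest set did not pass, another set passed in the opposite direction in EEF1A1, EEF1AKMT1, EIF2B1, EIF3M, EIF4G1 and EIF4H. Signals near 74.7, as for EIF1AY and EIF2AK2, limit what can be read. The alternatives for the ratio of EEF1A2 to EEF1A1 were not run, as that ratio was not measured. No paired analysis was possible because the animal numbers only follow sample order.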
